A study of Mus musculus with 32 samples.

Results

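The genes described here are 10 components of IL-1 and TNF signalling, taken by name from the 54532 genes listed in a liver RNA-Seq table. They are the IL-1 ligand *Il1b*, its antagonist *Il1rn*, the IL-1 receptors *Il1r1* and *Il1r2*, the TNF ligand *Tnf*, the TNF receptors *Tnfrsf1a* and *Tnfrsf1b*, the TWEAK receptor *Tnfrsf12a*, and the feedback inhibitors *Tnfaip3* and *Nfkbia*. All 10 were found, each on 1 row. RNA was measured in whole liver of C57BL/6 mice aged 12 weeks, of both sexes, that were wild type (WT) or carried a whole-body *Cyp2c70* knockout (KO). Mice of each genotype and sex ate plain chow or chow containing 0.006% SC-435, an inhibitor of the ileal bile acid transporter (IBAT), which came to about 11 mg/kg per day. The 8 groups of 4 mice each therefore held WT chow, KO chow, WT SC-435 and KO SC-435 livers of each sex. The KO line was bred from a single founder with a deletion covering exon 2, so that it carries 1 allele in every cell type, and both diets were given over the same weeks after weaning.

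IL-1β signals through the receptor encoded by *Il1r1*, which recruits MyD88 and IRAK kinases and activates the transcription factor NF-κB. The antagonist encoded by *Il1rn* occupies that receptor without signalling, and the *Il1r2* product binds the ligand as a decoy. TNF acts through the receptors encoded by *Tnfrsf1a* and *Tnfrsf1b*, while *Tnfrsf12a* encodes the receptor of the related cytokine TWEAK, known from regenerating liver and bile duct proliferation. NF-κB induces its own inhibitors, the IκBα protein encoded by *Nfkbia* and the ubiquitin-editing enzyme encoded by *Tnfaip3*. In liver, Kupffer cells and recruited monocytes are known as the main producers of IL-1β and TNF.

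Because NF-κB acts downstream of both receptors, the promoters are shown where they hold its motif. The 250 bases before each RefSeq transcription start were searched on both strands for the NF-κB consensus. A match was present in 3 of the 14 windows of the 10 members, against 3.9% of 32851 windows of all promoters. The 4 matches lay in *Nfkbia*, in the upstream of both *Tnfaip3* starts and in the downstream of both *Il1r1* starts, and each is given here as 30 bases, 5′ to 3′ on the gene's strand, with the match in capitals (build GRCm38.p6).
Nfkbia, chr12:55492657-55492686, minus strand: tgactggcttGGAAATTCCCcgcgcctgac
Tnfaip3, chr10:19015411-19015440, minus strand: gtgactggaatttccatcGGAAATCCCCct
Tnfaip3, chr10:19015516-19015545, minus strand: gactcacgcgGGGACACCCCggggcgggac
Il1r1, chr1:40266344-40266373, plus strand: cagggattttGGAATGCCCCcaaggagatg
The *Nfkbia* match ended 20 bases before the start, and those of *Tnfaip3* ended 3 and 116 bases before theirs. The counted *Tnfaip3* gene model extends to base 19015657, so both matches lie within it, and 110 of the 250 window bases were annotated exon. No match was found in the windows of *Il1b*, *Il1rn*, *Tnf* or the 4 other members. An AP-1 type motif, TGANTCA, was present once in *Il1rn* and once in *Tnfaip3*, without overlap with the NF-κB matches, against 6.75% of all windows. Of the promoters with NF-κB matches, only *Tnfaip3* belonged to a gene whose RNA rose in KO livers, as described next.

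The libraries held 36476021 to 44771350 counts, and the value of 3 counts ranged from 0.0541 to 0.117 CPM. CPM is a gene's count per 10 to the sixth counts of its library, after TMM scaling over the 32 libraries. *Cyp2c70* measured 271 to 838 CPM in the WT libraries and 109 to 188 CPM in the KO libraries, where the transcript without exon 2 is still counted. The chow-fed WT male 1 library stood apart. Its scaling factor was 0.622 against 0.912 to 1.26 in the other 31 libraries, its mean correlation with its group was 0.918 against 0.962 to 0.964 for its 3 companions, and its hepatocyte markers summed to 182700 CPM against at most 119900 elsewhere. Fold changes that use it are followed by the value without it where the call or the count of calls moved.

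The members did not move all together. Some rose in KO livers on chow and fell back with SC-435. In females *Il1r1*, *Tnfrsf1b* and *Tnfrsf12a* instead fell with SC-435 to below chow-fed WT, without a detectable rise on chow. In chow-fed females, 3 of the 8 members tested (*Il1b*, *Il1rn* and *Tnfaip3*) were higher in KO than in WT livers, by edgeR's quasi-likelihood test at an adjusted p under 0.05, and none was lower. Among all genes tested, 9.83% were higher and 5.05% lower. In KO females, 6 of 9 members tested were lower with SC-435 (*Il1rn*, *Il1r1*, *Tnf*, *Tnfrsf1b*, *Tnfrsf12a* and *Tnfaip3*) and none was higher, against 9.23% of all genes lower and 8.56% higher. The sparse *Tnf* passed the low-count filter in this female pair only, mainly through the chow-fed KO livers where it was high. Its place in this count and in the female median below is therefore no separate support. In chow-fed males, *Il1rn* and *Tnfaip3* were higher in KO livers, against 0.933% of all genes higher and 0.151% lower. Without WT male 1 the same 2 members passed, against 4.38% of all genes higher. In KO males, 4 of 8 members were lower with SC-435 (*Il1rn*, *Il1r1*, *Tnfrsf12a* and *Tnfaip3*), against 8.36% of all genes lower and 8.8% higher. The median log2 fold change of the members tested was −1.03 in females and −1.2 in males in this comparison, against −0.02 and −0.03 over all genes. In whole liver, fewer cells of a type and less RNA per cell cannot be told apart.

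**Figure D1:**
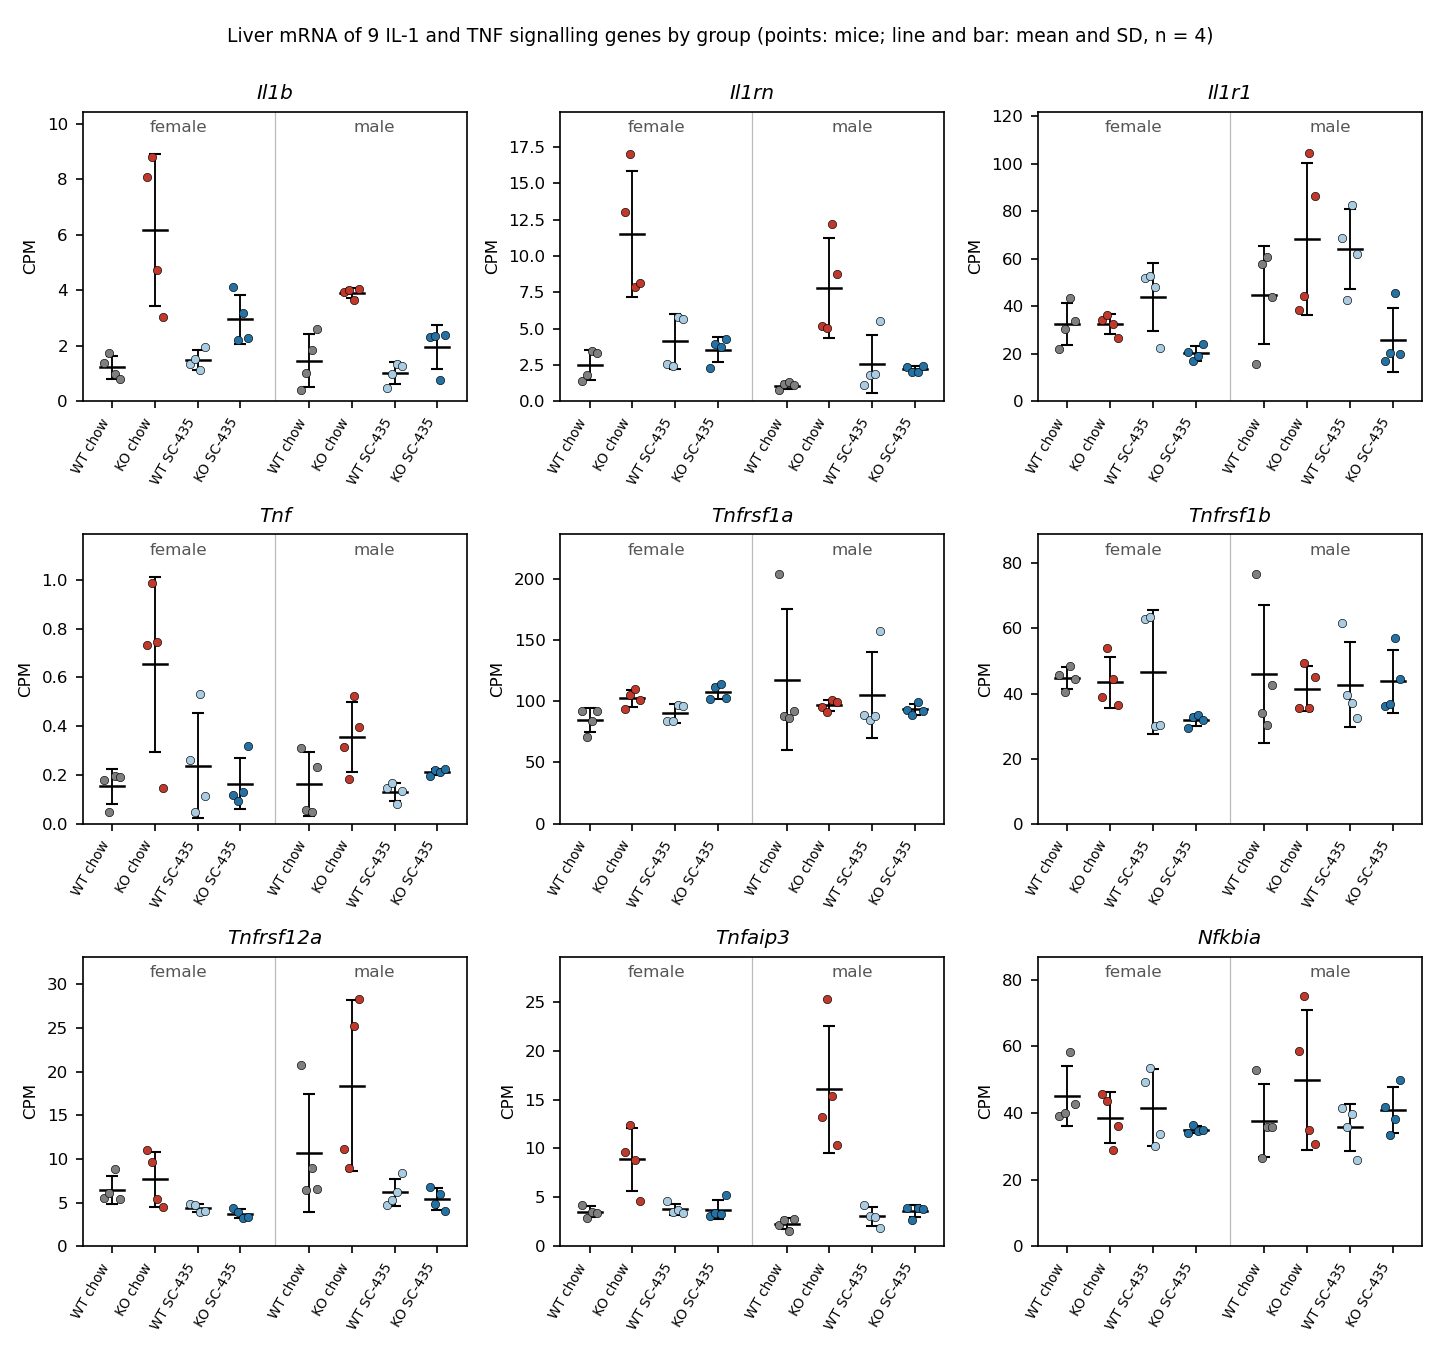
Levels of 9 members in CPM (vertical axis, starting at 0) in each of the 8 groups, with 1 point per mouse and a line and bar for the mean and SD (n = 4). *Il1b*, *Il1rn* and *Tnfaip3* were highest in the KO chow groups, while *Tnfrsf1a* lay between 71.0 and 114 CPM in all but 2 libraries; *Il1r2*, at 0 to 15 counts per library, is left out.

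*Il1b*, the IL-1 ligand, was highest in chow-fed KO females and remained above WT with SC-435. The 4 chow-fed WT females measured 1.37, 1.74, 0.995 and 0.783 CPM, and the 4 chow-fed KO females 8.08, 8.81, 4.72 and 3.03 CPM. SC-435-fed KO females measured 4.11, 2.21, 3.20 and 2.27 CPM and SC-435-fed WT females 1.35, 1.51, 1.14 and 1.95 CPM. Every KO female thus lay above every WT female, on either diet, whereas the KO groups on chow and on SC-435 overlapped through chow-fed KO female 4. The log2 fold change between KO and WT on chow was 2.33 ± 0.37 (SE, adjusted p = 0.00387). Between KO on SC-435 and WT on chow it was 1.27 ± 0.29 (adjusted p = 0.0131), and between KO and WT on SC-435 it was 0.99 ± 0.24 (adjusted p = 0.0302). The fall with SC-435 in KO females, −1.07 ± 0.33, missed the threshold (adjusted p = 0.0513) and passed without chow-fed KO female 4 (−1.28, adjusted p = 0.00554), as well as by DESeq2 (adjusted p = 0.00933). The difference on SC-435 did not pass when SC-435-fed KO female 1 or 3, or WT female 1, 2 or 3, was left out (adjusted p = 0.0738, 0.0745, 0.0772, 0.054 and 0.0678), nor with the 4 female groups in a single fit (adjusted p = 0.098).

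Male *Il1b* was also highest in chow-fed KO livers. Chow-fed WT males measured 0.390, 1.01, 1.86 and 2.59 CPM, and chow-fed KO males 3.93, 4.01, 3.65 and 4.04 CPM. The KO males lay close together and above all WT males, but the log2 fold change of 1.43 ± 0.49 did not pass (adjusted p = 0.204, and 0.0595 without WT male 1, where it was 1.11). It passed in 1 of 6 alternative settings, DESeq2 (adjusted p = 0.0487), with adjusted p up to 0.217 in the others. KO males on SC-435 measured 2.31, 2.36, 0.766 and 2.38 CPM, all below the chow-fed KO males. The change with the inhibitor was −0.99 ± 0.31 (adjusted p = 0.0567). It passed in 2 of 6 alternative settings, DESeq2 (adjusted p = 0.0103) and library size alone (0.0426), with adjusted p up to 0.218 in the others. Without SC-435-fed KO male 3, the lowest, it was smaller and passed, at −0.73 ± 0.15 (adjusted p = 0.029).

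*Il1rn*, the receptor antagonist, rose in KO livers of both sexes and fell with SC-435. The 4 chow-fed WT females measured 1.40, 1.79, 3.42 and 3.32 CPM, and the chow-fed KO females 13.0, 17.0, 7.89 and 8.15 CPM. With SC-435 the KO females measured 2.27, 3.90, 3.74 and 4.30 CPM, within or just above the WT chow range and below every chow-fed KO female. The log2 fold changes were 2.20 ± 0.34 between KO and WT on chow (adjusted p = 0.00362) and −1.69 ± 0.28 with SC-435 in KO (adjusted p = 0.00532). KO females on SC-435 did not differ detectably from WT on chow (0.52 ± 0.30, adjusted p = 0.268).

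Male *Il1rn* rose from a low WT level. Chow-fed WT males measured 0.741, 1.2, 1.29 and 1.09 CPM, and KO males 5.17, 5.04, 12.2 and 8.75 CPM. The ranges did not overlap, and the log2 fold change was 2.88 ± 0.38 (adjusted p = 0.0153). It was 2.72 without WT male 1 (adjusted p = 0.0112) and did not pass without WT male 2, 3 or 4 (adjusted p = 0.0728, 0.0698 and 0.068). SC-435-fed KO males measured 2.36, 2.04, 1.98 and 2.45 CPM, a fall of 1.81 ± 0.29 that held in every fit with 1 library left out (adjusted p = 0.00572). These values were still above all 4 chow-fed WT males. That difference, 1.03 ± 0.25, did not pass with all libraries (adjusted p = 0.195) and passed without WT male 1 (0.89, adjusted p = 0.0171). Among WT mice on SC-435, levels split within each sex: females 3 and 4 at 5.82 and 5.69 CPM stood above females 1 and 2 at 2.54 and 2.44 CPM, and male 4 at 5.52 CPM stood above the other 3 at 1.14 to 1.85 CPM.

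*Il1r1*, the signalling receptor of IL-1, did not follow its ligand. In females the chow-fed WT mice measured 21.9, 30.5, 43.4 and 33.9 CPM and the KO mice 34.2, 36.3, 32.7 and 26.6 CPM, with a log2 fold change of −0.01 ± 0.18 (adjusted p = 0.984). With SC-435 the KO females measured 20.6, 16.9, 18.9 and 24.1 CPM, below every chow-fed KO female. The log2 fold change was −0.69 ± 0.13 (adjusted p = 0.00736), and the call held without any single library. The SC-435-fed KO females were also lower than chow-fed WT females (−0.69 ± 0.18, adjusted p = 0.0247) and than SC-435-fed WT females (−1.12 ± 0.23, adjusted p = 0.0152), whose values were 51.9, 52.7, 48.3 and 22.6 CPM. The former call did not pass without KO female 1, 2 or 3 on SC-435 or WT female 3 (adjusted p = 0.0544, 0.0854, 0.074 and 0.0582) or in a single fit of the 4 female groups (adjusted p = 0.0551), and the latter without KO female 2 (adjusted p = 0.0539).

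Male *Il1r1* was more uneven. Chow-fed WT males measured 15.7, 57.8, 60.9 and 44.0 CPM, the lowest being WT male 1, and chow-fed KO males 38.4, 44.4, 104 and 86.3 CPM. KO males 3 and 4 were thus far above KO males 1 and 2. SC-435-fed KO males measured 17.0, 20.3, 45.7 and 19.8 CPM, with male 3 alone above the others and inside the chow range. The log2 fold change between KO and WT on chow was 0.65 ± 0.46 (adjusted p = 0.528, and 0.35 with an adjusted p of 0.542 without WT male 1). The change with SC-435 in KO was −1.41 ± 0.40 (adjusted p = 0.0413). It did not pass without SC-435-fed male 1, 2 or 4 (adjusted p = 0.11, 0.095 and 0.114) or chow-fed male 3 or 4 (adjusted p = 0.107 and 0.069), or in a single fit of the 4 male groups (adjusted p = 0.0614). Between KO and WT males on SC-435 the log2 fold change of −1.32 ± 0.31 did not pass (adjusted p = 0.246), but did without SC-435-fed KO male 3 (adjusted p = 0.0304). A provisional gene model on the same strand, *Gm38070*, lies within *Il1r1* and took at most 223 counts in a library, where *Il1r1* took 403 to 5173.

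*Il1r2*, the decoy receptor, was close to the limit of detection and did not pass the filter on low counts in any comparison. Chow-fed KO females held 3, 8, 10 and 4 counts and chow-fed KO males 2, 2, 6 and 15 counts. The other 6 groups held 2 to 4 counts over all 4 of their libraries together, and most of these libraries held no count. The 50 counts of the 2 chow-fed KO groups therefore made up most of the 67 counts seen. In the fit without the filter no comparison passed, the lowest adjusted p being 0.0841 for SC-435 against chow in KO males. No fold is given against groups at this level.

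*Tnf*, the TNF ligand, was also sparse, at 2 to 51 counts per library. The 4 chow-fed WT females held 7, 2, 8 and 8 counts and the KO females 38, 51, 37 and 6, so that 3 KO females stood far above and KO female 4 within the WT range. SC-435-fed KO females held 5, 4, 5 and 14 counts. In CPM the KO mean was 0.654 ± 0.358 (SD, n = 4) on chow and 0.164 ± 0.104 on SC-435, a log2 fold change of −1.98 ± 0.57 (adjusted p = 0.0387). This call did not pass without SC-435-fed KO female 1, 2 or 3 (adjusted p = 0.103, 0.114 and 0.101) or chow-fed KO female 1, 2 or 3 (adjusted p = 0.0781, 0.109 and 0.075). Against WT on chow, *Tnf* failed the filter in females. Without the filter the log2 fold change was 2.08 ± 0.54 (adjusted p = 0.0224), and without chow-fed KO female 4 the gene passed the filter at 2.42 ± 0.42 (adjusted p = 0.0032). It also passed the filter, but not the test, without WT female 1, 2, 3 or 4 (adjusted p = 0.0698, 0.0884, 0.071 and 0.0663). *Tnf* passed in all 3 alternative settings that tested it, the unfiltered fit among them (adjusted p = 0.00688 to 0.0266). In males, WT mice held 8, 2, 2 and 9 counts and KO mice 14, 8, 26 and 22 on chow. The unfiltered log2 fold change was 1.2 ± 0.67 (adjusted p = 0.511), and 1.66 ± 0.62 without WT male 1 (adjusted p = 0.133).

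By edgeR with all libraries, the calls of the 2 TNF receptors all involved the SC-435-fed KO females. They were no larger than 0.49 on the log2 scale. *Tnfrsf1a* measured 92.4, 71.0, 84.1 and 91.7 CPM in chow-fed WT females and 93.4, 105, 110 and 101 CPM in KO females, which lay just above. SC-435-fed KO females measured 102, 112, 114 and 103 CPM, above every WT female of either diet. The difference on chow was 0.26 ± 0.11 on the log2 scale (adjusted p = 0.131, and 0.017 with scaling by library size alone), and those of SC-435-fed KO females were 0.34 ± 0.10 against WT on chow (adjusted p = 0.0356) and 0.26 ± 0.07 against WT on SC-435 (adjusted p = 0.0462). Leaving out any of the 4 SC-435-fed KO females took the call away in both comparisons (adjusted p up to 0.0987 and 0.122), as did leaving out chow-fed WT female 2 or 3 (adjusted p = 0.0845 and 0.076) or SC-435-fed WT female 1 or 2 (adjusted p = 0.123 and 0.103). In males, chow-fed WT male 1 at 204 CPM and SC-435-fed WT male 4 at 158 CPM stood above the other 14 libraries, which ranged from 84.6 to 101 CPM.

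*Tnfrsf1b*, the receptor found mainly on immune and endothelial cells, measured 45.7, 40.3, 48.4 and 44.4 CPM in chow-fed WT females and 38.9, 54.1, 44.5 and 36.4 CPM in KO females. The SC-435-fed KO females lay together at 29.5, 32.7, 33.4 and 31.7 CPM, below both chow groups. The log2 fold changes were −0.45 ± 0.12 against chow-fed KO (adjusted p = 0.0263) and −0.49 ± 0.08 against chow-fed WT females (adjusted p = 0.0029). The former call was lost without any 1 of the SC-435-fed KO females (adjusted p = 0.0554 to 0.0781) and without chow-fed KO female 2 or 3 (adjusted p = 0.0543 for each). Neither passed when the 4 female groups were fitted together (adjusted p = 0.142 and 0.128). SC-435-fed WT females split into 62.9 and 63.4 CPM for females 1 and 2 and 29.9 and 30.3 CPM for females 3 and 4. Male groups overlapped throughout at 30.4 to 76.9 CPM, with WT male 1 the highest.

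*Tnfrsf12a*, the TWEAK receptor, fell below the chow-fed WT level in SC-435-fed KO females. Chow-fed WT females measured 5.53, 6.09, 8.86 and 5.44 CPM, and chow-fed KO females 11.0, 9.64, 5.40 and 4.54 CPM, so that KO females 1 and 2 were above the WT range and 3 and 4 were not. SC-435-fed KO females measured 4.37, 3.95, 3.28 and 3.34 CPM, and SC-435-fed WT females 4.89, 4.73, 3.89 and 4.05 CPM. Both SC-435 groups thus lay below every chow-fed WT female. The log2 fold changes were 0.23 ± 0.29 for KO against WT on chow (adjusted p = 0.622), −1.03 ± 0.27 for SC-435 in KO (adjusted p = 0.0275) and −0.79 ± 0.18 for KO on SC-435 against WT on chow (adjusted p = 0.0129). In WT females the change with SC-435 was −0.57 ± 0.17 (adjusted p = 0.0995), which passed only by DESeq2 (adjusted p = 0.0336). The call in KO was lost without any 1 of the SC-435-fed females (adjusted p = 0.0545 to 0.0789) or chow-fed female 1 or 2 (adjusted p = 0.0639 and 0.0802).

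Male *Tnfrsf12a* also fell with SC-435 in KO livers, but not detectably below chow-fed WT. Chow-fed WT males measured 20.7, 6.43, 8.97 and 6.56 CPM, with male 1 again apart, and chow-fed KO males 11.1, 8.91, 25.2 and 28.4 CPM. KO males 3 and 4, which also had the highest *Il1r1*, stood above KO males 1 and 2. With SC-435 the KO males measured 6.79, 4.79, 5.97 and 4.04 CPM, below all chow-fed KO males, a log2 fold change of −1.77 ± 0.37 (adjusted p = 0.0163, and 0.0567 without SC-435-fed male 4). The difference between KO and WT on chow was 0.84 ± 0.49 (adjusted p = 0.448), and 1.35 ± 0.42 without WT male 1 (adjusted p = 0.0868). Between KO on SC-435 and WT on chow it was −0.96 ± 0.39 (adjusted p = 0.55), and −0.44 ± 0.20 without WT male 1 (adjusted p = 0.178).

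*Tnfaip3*, the feedback inhibitor that acts on both receptor pathways, rose in KO livers of both sexes and was lower in KO livers on SC-435 than on chow. Chow-fed WT females measured 4.27, 2.87, 3.52 and 3.42 CPM, KO females on chow 9.61, 12.4, 8.83 and 4.66 CPM, and KO females on SC-435 3.06, 3.45, 3.28 and 5.21 CPM. Chow-fed KO female 4, the lowest of its group, still exceeded every WT female but not SC-435-fed KO female 4. The log2 fold changes were 1.33 ± 0.26 between genotypes on chow (adjusted p = 0.00959) and −1.24 ± 0.28 with SC-435 in KO (adjusted p = 0.0153). The second did not pass without SC-435-fed KO female 1, 2 or 3 (adjusted p = 0.0503, 0.0548 and 0.0513). KO on SC-435 and WT on chow differed by 0.09 ± 0.20 (adjusted p = 0.796).

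In males *Tnfaip3* had the largest log2 fold change with SC-435 among the 8 members tested. Chow-fed WT males measured 2.14, 2.65, 1.59 and 2.83 CPM, and chow-fed KO males 13.2, 25.3, 15.4 and 10.4 CPM, so that the lowest KO male was several times the highest WT male. SC-435-fed KO males measured 3.94, 2.72, 3.88 and 3.82 CPM, within the 1.85 to 4.23 CPM of SC-435-fed WT males. The log2 fold changes were 2.83 ± 0.33 between genotypes on chow (adjusted p = 0.00949, and 2.78 with 0.0094 without WT male 1) and −2.15 ± 0.27 with SC-435 in KO (adjusted p = 0.002). The former did not pass without WT male 2 or 3 (adjusted p = 0.0603 and 0.0549), whereas the latter passed in every fit with 1 library left out.

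*Nfkbia*, the other feedback inhibitor and one of the members with an NF-κB match, passed in no comparison by edgeR with all libraries and the low-count filter. Female groups measured 39.1, 40.0, 58.3 and 42.6 CPM in WT chow, 45.6, 43.6, 29 and 35.9 CPM in KO chow, and 33.8, 36.4, 34.5 and 34.9 CPM in KO SC-435. The last lay together below every chow-fed WT female, at a log2 fold change of −0.37 ± 0.12 (adjusted p = 0.0598, and 0.0319 without WT female 1). This difference passed by DESeq2 (adjusted p = 0.035) and by edgeR without the filter (adjusted p = 0.0463). In chow-fed KO males, males 1 and 2 at 58.6 and 75.1 CPM stood above males 3 and 4 at 35.0 and 30.7 CPM. This was the opposite order to that of *Il1r1*, *Tnfrsf12a* and *Il1rn* in the same 4 livers. The male log2 fold changes were 0.44 ± 0.32 between genotypes on chow (adjusted p = 0.533, and 0.223 without WT male 1) and −0.29 ± 0.27 with SC-435 in KO (adjusted p = 0.48).

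**Figure D2:**
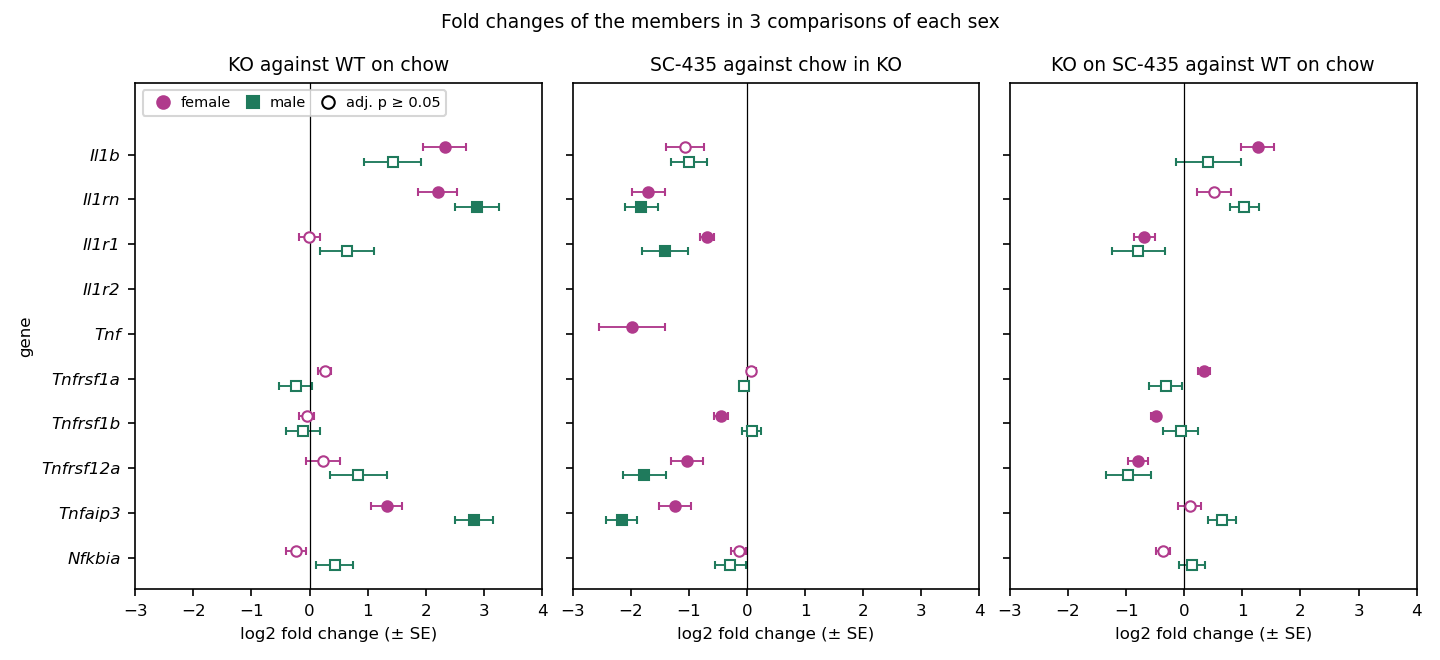
Log2 fold changes with their SE (horizontal axis) of each member (vertical axis) in 3 comparisons of each sex, filled where the adjusted p was under 0.05; members that did not pass the filter on low counts have no point. In the right panel, KO on SC-435 against WT on chow, *Il1b* (1.27) lies to the right and *Il1r1* (−0.69), *Tnfrsf1b* (−0.49) and *Tnfrsf12a* (−0.79) to the left in females.

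KO livers on SC-435 were not the same as chow-fed WT livers for these genes in females. There, *Il1b* and *Tnfrsf1a* were higher and *Il1r1*, *Tnfrsf1b* and *Tnfrsf12a* lower, that is 5 of 8 members tested, against 8.73% of all genes higher and 7.3% lower. When both genotypes ate SC-435, *Il1b* and *Tnfrsf1a* were higher and *Il1r1* lower in KO females, against 6.23% and 4.69% of all genes. The comparisons share their SC-435-fed KO females. In the matching male comparisons no member passed by edgeR, where 3 and 2 members had an unadjusted p under 0.05 and DESeq2 called 1 and 0 members. Of all genes, 0.208% and 0.0324% were called there. Without chow-fed WT male 1, KO males on SC-435 against WT on chow gave 1022 higher and 901 lower genes of 15797, and *Il1rn* passed (0.89, adjusted p = 0.0171).

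In WT mice, SC-435 changed no member by edgeR in either sex. In females 1 member, *Tnfrsf12a*, had an unadjusted p under 0.05 and passed by DESeq2, against 4.28% of all genes by edgeR. In males 1 member, *Il1rn*, had an unadjusted p under 0.05 (log2 fold change 1.24 ± 0.49) and DESeq2 called 0, against 0.0394% of all genes. Without chow-fed WT male 1, 220 genes were higher and 174 lower of 15577, no member passed by edgeR, and *Il1rn* was at 1.1 ± 0.50 (unadjusted p = 0.0554, adjusted p = 0.279).

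Whether the diet effect differed between genotypes was tested as an interaction, the change with SC-435 in KO minus that in WT. In females it passed for *Il1rn* (−2.43 ± 0.51, adjusted p = 0.0247) and *Tnfaip3* (−1.35 ± 0.35, adjusted p = 0.0484), against 1.78% of all genes with a negative interaction. *Tnfaip3* passed in males (−2.57 ± 0.42, adjusted p = 0.0299), against 0.0785% of all genes. Male *Il1rn*, with a larger estimate of −3.06 ± 0.59, missed the threshold (adjusted p = 0.0712) and passed without WT male 1 (−2.95, adjusted p = 0.0477). The female *Tnfaip3* interaction passed in only 2 of the 16 fits with 1 library left out, those without chow-fed or SC-435-fed KO female 4, and otherwise reached adjusted p values of 0.0525 to 0.109. The female *Il1rn* interaction did not pass without chow-fed KO female 2 (adjusted p = 0.0592), SC-435-fed WT female 3 (0.0538) or SC-435-fed KO female 1, 2 or 3 (0.0648, 0.0588 and 0.0515). Without chow-fed KO female 4, those of *Il1b*, *Il1r1* and *Tnf* passed too (adjusted p = 0.0219, 0.0313 and 0.0374). The male *Tnfaip3* interaction did not pass without chow-fed WT male 2 or 3 (adjusted p = 0.0632 and 0.0774), chow-fed KO male 3 (0.0623), SC-435-fed WT male 1 or 2 (0.0571 for each) or any 1 SC-435-fed KO male (0.0544 to 0.112). It passed without WT male 1 (−2.55, adjusted p = 0.0243).

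Effects did not differ detectably between the sexes for any member by edgeR. For KO against WT on chow, female minus male differences ranged from −1.46 ± 0.43 for *Tnfaip3* (unadjusted p = 0.00368, adjusted p = 0.456) to 0.93 ± 0.61 for *Il1b* (adjusted p = 0.895). For SC-435 in KO they ranged from −1.26 ± 0.72 for *Tnf* (adjusted p = 0.499) to 0.90 ± 0.41 for *Tnfaip3* (adjusted p = 0.391). Without chow-fed WT male 1, the differences on chow for *Tnfaip3*, *Il1b* and *Nfkbia* had an unadjusted p of 0.00647, 0.0253 and 0.0392 (adjusted p = 0.185, 0.286 and 0.344). With all libraries 1 and 2 members had an unadjusted p under 0.05, DESeq2 called 0 in each, and 0.0235% and 0.211% of all genes were called.

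The other genes of the pathways, 122 genes in 8 role groups, were then counted beside the members. Sparse genes among them can pass the low-count filter mainly through the chow-fed KO livers. Where a named gene lost its call, the highest adjusted p over its 14 alternatives, most of them fits with 1 library left out, is given after "up to". In chow-fed females, 32 of the 101 tested were higher in KO livers and 3 lower, with a median log2 fold change of 0.34 against −0.02 over all genes. Of all genes tested, 9.83% were higher and 5.05% lower. In KO females on SC-435, 26 were lower and 7 higher, with a median of −0.32. The shares of all genes were 9.23% lower and 8.56% higher. In males the counts were 7 higher and 0 lower of 102 on chow (30 with an unadjusted p under 0.05, 17 by DESeq2), and 20 higher and 1 lower of 104 without WT male 1. Over all genes, 0.933% were higher and 0.151% lower with all libraries, and 4.38% higher without WT male 1. With SC-435 in KO males, 31 of 103 were lower and 4 higher, with a median of −0.53. Here 8.36% of all genes were lower and 8.8% higher.

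**Figure D3:**
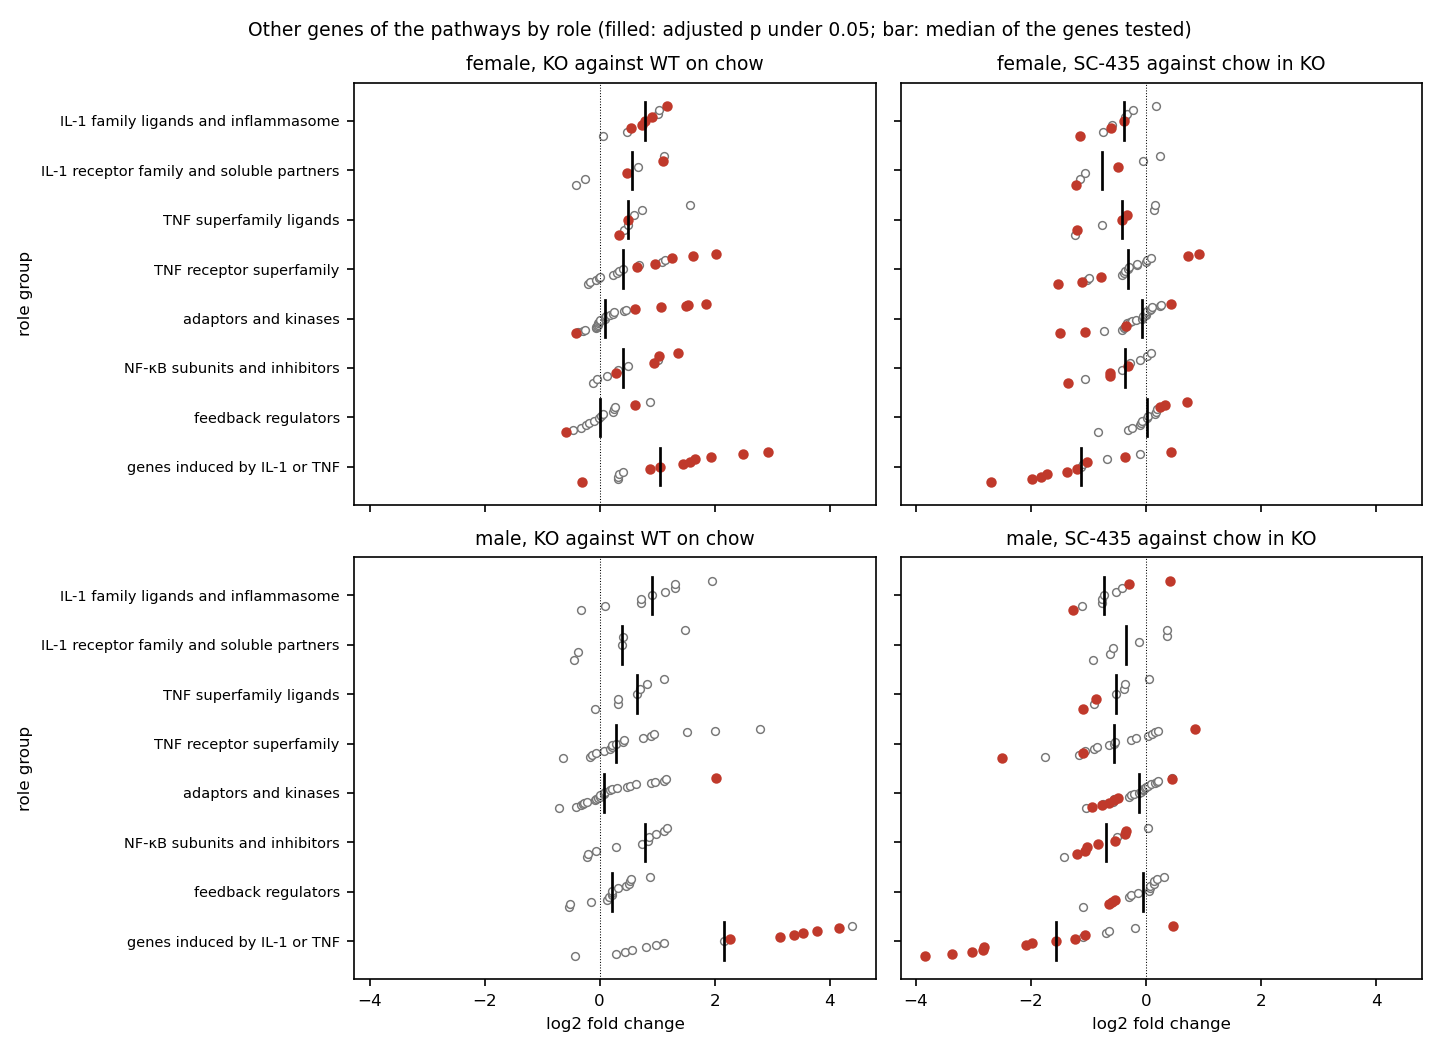
Log2 fold changes (horizontal axis) of the other pathway genes by role group (vertical axis), with 1 point per gene tested, filled where the adjusted p was under 0.05, and a bar for the median of each group. The genes induced by IL-1 or TNF spread furthest, with medians of 1.05 and 2.16 in KO against WT on chow and −1.13 and −1.56 with SC-435, in females and males.

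Genes that IL-1 or TNF are known to induce moved most among these groups. In females 8 of 13 were higher in KO livers and 8 were lower with SC-435, and in males 6 of 15 were higher and 10 lower. The matching shares of all genes were 9.83% and 9.23% in females, and 0.933% and 8.36% in males. Without chow-fed WT male 1, 10 of the 15 were higher in males, against 4.38% of all genes. *Lcn2*, which encodes a secreted iron-siderophore binding protein, measured 8.48 ± 4.69 CPM (SD, n = 4) in chow-fed WT females, 65.2 ± 47.8 in KO and 10.1 ± 3.25 in KO on SC-435. Its log2 fold changes were 2.93 (adjusted p = 0.00707) and −2.69 (adjusted p = 0.00675). *Ccl2*, a monocyte chemoattractant, measured 0.310 ± 0.0829 CPM in chow-fed WT males, 5.44 ± 1.72 in KO and 0.373 ± 0.0645 in KO on SC-435, with log2 fold changes of 4.15 (adjusted p = 0.00209) and −3.85 (adjusted p = 0.000159) that passed under all 14 alternatives. *Saa2*, an acute phase gene, rose by 2.48 in females (adjusted p = 0.00384) and fell by 1.99 with SC-435 (adjusted p = 0.0105), though reads of the near-identical *Saa1* could not be separated with certainty. *Cxcl1*, a neutrophil chemoattractant, fell by 3.38 with SC-435 in males (adjusted p = 0.00685). The rise of *Lcn2* in males, 3.77 (adjusted p = 0.046), passed in only 6 of 14 alternatives, with an adjusted p of 0.00747 without WT male 1 and of up to 0.15 without WT male 3. *Sod2*, a mitochondrial antioxidant enzyme of the same group, is named after its values were seen because it went the other way, at −0.31 in KO females (adjusted p = 0.0463) and 0.43 and 0.47 with SC-435 in females and males (adjusted p = 0.00847 and 0.03).

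The NF-κB subunits and inhibitors rose and fell in part. In females 4 of 10 were higher in KO livers and 4 lower with SC-435, and in males 7 of 10 were lower with SC-435. The matching shares of all genes were 9.83%, 9.23% and 8.36%. *Relb*, a subunit of the non-canonical pathway, measured 3.06 ± 0.790 CPM in chow-fed WT females, 7.88 ± 2.42 in KO and 3.07 ± 0.243 in KO on SC-435, at log2 fold changes of 1.36 (adjusted p = 0.00742) and −1.36 (adjusted p = 0.00434). *Nfkb2*, its usual partner, changed by 1.03 (adjusted p = 0.00283) and −0.63 (adjusted p = 0.017). In males *Relb* and *Nfkbiz*, an inducible nuclear IκB protein, changed by −1.21 (adjusted p = 0.02) and −1.06 (adjusted p = 0.0127) with SC-435. Of these calls with SC-435, that of *Nfkb2* in females passed in 10 of 14 alternatives (adjusted p up to 0.058), *Relb* in males in 10 (up to 0.0594) and *Nfkbiz* in 13 (0.202 with the 4 male groups in a single fit).

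Among adaptors and kinases, 5 of 25 were higher and 1 lower in chow-fed KO females. Of all genes, 9.83% were higher and 5.05% lower, so that the count of 1 lower was near its share. *Traf1*, itself a TNF-inducible adaptor, rose by 1.86 (adjusted p = 0.0056) and fell by 1.5 with SC-435 (adjusted p = 0.0131). *Mlkl*, the effector of necroptosis, rose by 1.54 in females (adjusted p = 0.00116) and 2.03 in males (adjusted p = 0.00949), where it did not pass without WT male 2 or 3 (adjusted p up to 0.0603). The female *Mlkl* change with SC-435 was −0.25 (adjusted p = 0.238) and KO on SC-435 remained 1.29 above WT on chow (adjusted p = 0.000708), whereas in males it fell by 0.76 (adjusted p = 0.0109). *Irak3*, an inhibitory IRAK, fell by 1.07 with SC-435 in females (adjusted p = 0.0439, up to 0.128), and *Map3k14*, the NF-κB inducing kinase, fell by 0.94 in males (adjusted p = 0.0224, up to 0.0692).

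Of the IL-1 family ligands and inflammasome genes, 5 of 9 were higher in chow-fed KO females and 3 lower with SC-435. The matching shares of all genes were 9.83% and 9.23%. *Nlrp3*, the sensor of the inflammasome that matures IL-1β, rose by 1.18 (adjusted p = 0.0122) and fell by 1.14 (adjusted p = 0.0212, up to 0.0695). *Casp4*, an inflammatory caspase, rose by 0.92 in females (adjusted p = 0.0298, up to 0.0932) and fell by 1.27 with SC-435 in males (adjusted p = 0.0237, up to 0.126). *Il33*, an alarmin, fell by 0.62 in females (adjusted p = 0.0196, up to 0.0625), while *Il18* rose by 0.41 with SC-435 in males (adjusted p = 0.0387, passing in 3 of 14 alternatives). Against 9.83% and 9.23% of all genes, 2 of 6 of the IL-1 receptor family were higher in KO females and 2 lower with SC-435. These were *Il1rl2*, the IL-36 receptor, at 1.1 and −1.22 (adjusted p = 0.025 and 0.046), and *Il18bp*, a secreted inhibitor of IL-18, at 0.47 and −0.48 (adjusted p = 0.0397 and 0.0394), each lost in some alternatives (adjusted p up to 0.122 for *Il1rl2* and 0.114 for *Il18bp*).

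Few genes of the TNF superfamily ligand list, which also holds the protease gene *Adam17*, could be tested, 7 of 16. Of the 20 other receptors of the family, 17 were tested. Among the receptors tested, 5 were higher in KO females, against 9.83% of all genes. They were led by *Tnfrsf10b*, the mouse TRAIL receptor, at 2.02 (adjusted p = 0.00914), and *Tnfrsf13b*, a receptor of BAFF and APRIL, at 1.62 (adjusted p = 0.00729). *Tnfrsf13b* fell by 1.54 with SC-435 (adjusted p = 0.0148) and *Tnfrsf11a*, the RANKL receptor, by 1.11 (adjusted p = 0.0337, up to 0.0997). The *Tnfrsf13b* fall did not pass without SC-435-fed KO female 2 (adjusted p = 0.055). In males *Tnfrsf10b* fell by 2.51 and *Tnfrsf21* by 1.1 with SC-435 (adjusted p = 0.0438 and 0.0359, up to 0.13 and 0.102). Among ligands, *Tnfsf12*, which encodes TWEAK, the ligand of *Tnfrsf12a*, fell by 0.42 with SC-435 in KO females (adjusted p = 0.0377, up to 0.115) and by 0.87 in KO males (adjusted p = 0.00444, passing in every fit with 1 library left out but not with the 4 male groups in a single fit, at 0.108). *Ltb*, lymphotoxin beta, fell by 1.21 and 1.1 (adjusted p = 0.0447 and 0.0467, up to 0.116 and 0.122). *Tnfsf10*, which encodes TRAIL, and *Adam17*, the protease that releases TNF, were higher in KO females by 0.50 and 0.34 (adjusted p = 0.0307 and 0.0226, up to 0.0792 and 0.068).

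The other feedback regulators gave the smallest median in chow-fed females, 0.00 over 14 genes, with 1 higher and 1 lower. Of all genes, 9.83% were higher and 5.05% lower, so that each count was near its share. *Tnip1*, a partner of the *Tnfaip3* product, rose by 0.61 in KO females (adjusted p = 0.0134), and fell by 0.65 with SC-435 in males (adjusted p = 0.0372, up to 0.133). *Otulin*, a deubiquitinase, was lower in KO females (−0.58, adjusted p = 0.0224, up to 0.0814) and higher with SC-435 (0.33, adjusted p = 0.033, up to 0.146). *Zfp36*, which destabilises the *Tnf* messenger, rose by 0.71 with SC-435 in KO females (adjusted p = 0.0106), and *Zc3h12a*, another RNA-degrading regulator, fell by 0.60 in KO males (adjusted p = 0.0402, up to 0.111).

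Markers of several cell types moved with the members. For scale, 9.83% of all genes were higher and 5.05% lower in chow-fed KO females, and 9.23% were lower with SC-435 in KO females. In chow-fed KO females, 7 of 11 Kupffer cell and macrophage markers were higher and 1, *Cd163*, lower, 5 of 6 tested monocyte and neutrophil markers were higher, and 5 of 8 cholangiocyte and 3 of 8 stellate cell markers were higher. The monocyte and neutrophil list holds 11 genes, and genes this sparse can pass the low-count filter mainly through the chow-fed KO livers. Shares of those tested therefore carry no weight in comparisons with these livers. Their summed levels were 585 to 827 CPM in KO against 440 to 497 in WT for macrophages, 9.27 to 23.4 against 4.75 to 6.02 for monocytes and neutrophils, 134 to 301 against 37.8 to 72.7 for cholangiocytes, and 292 to 714 against 170 to 245 for stellate cells. With SC-435 in KO females, 8 macrophage markers and 6 monocyte and neutrophil markers were lower, and their sums were 342 to 536 and 4.88 to 7.39 CPM, while cholangiocyte sums were 101 to 145 and stellate sums 263 to 311. Chow-fed KO female 4, lowest of its group in *Il1b*, *Tnf* and *Tnfaip3*, also had its lowest monocyte and neutrophil, cholangiocyte and stellate sums. Its macrophage sum, 668 CPM, was not the lowest, with KO female 1 at 585 CPM. The part of these cell types in the members' changes was not tested.

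In males the marker sums were uneven within the chow-fed KO group. KO male 4 held 1069 CPM of macrophage, 45.5 of monocyte and neutrophil, 1189 of cholangiocyte and 930 of stellate markers, and KO males 1 and 2 held 326 and 383, 10.1 and 10.1, 174 and 146, and 262 and 222 CPM. KO male 3 lay between in each. *Il1r1* and *Tnfrsf12a* were high in KO males 3 and 4, whereas *Il1b* was nearly equal in all 4 and *Tnfaip3* was highest in KO male 2, whose marker sums were the lowest or next to lowest. Chow-fed WT males held 342 to 557, 3.39 to 6.25, 27.5 to 36.6 and 138 to 172 CPM. With SC-435, 1 of 11 macrophage, 6 of 6 tested monocyte and neutrophil, 6 of 8 cholangiocyte and 4 of 8 stellate markers were lower in KO males, and the sums were 303 to 483, 3.78 to 4.56, 51.3 to 61.4 and 109 to 169 CPM. Of all genes, 8.36% were lower there, so that 1 of 11 macrophage markers was near that share. As in females, the tested monocyte and neutrophil markers could pass the filter mainly through the chow-fed KO livers. Between KO and WT males on chow, 4 cholangiocyte markers passed by edgeR and 0 of the macrophage, monocyte and neutrophil, and stellate lists, where 2, 5 and 4 had an unadjusted p under 0.05 and DESeq2 called 1, 6 and 3. By edgeR, 0.933% of all genes were higher and 0.151% lower in that comparison. Without WT male 1, edgeR called 6 cholangiocyte, 3 of 7 monocyte and neutrophil and 4 stellate markers higher and 1 macrophage marker lower. In that fit 4.38% of all 16390 genes were higher, and 478 genes were lower. Neutrophil-defining *Ly6g* had 0 counts in the SC-435-fed female groups. Of the other lists, hepatocyte markers were lower for 5 of 8 and higher for 1 in chow-fed KO females, 2 of 10 T and NK cell markers were higher there, and 4 of 8 endothelial and 2 of 5 erythroid markers were higher with SC-435 in KO males. The shares of all genes were 5.05% lower and 9.83% higher in those females, and 8.8% higher in those males. At most 1 of 6 B cell markers passed in any of these 4 comparisons, while their sum was 6.66 to 10.2 CPM in chow-fed KO males and 19.9, 9.41, 32.6 and 29.6 CPM in SC-435-fed KO males. T and NK cell markers summed to at most 9.32 CPM in any library. The part of all these cell types was not tested.

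**Figure D4:**
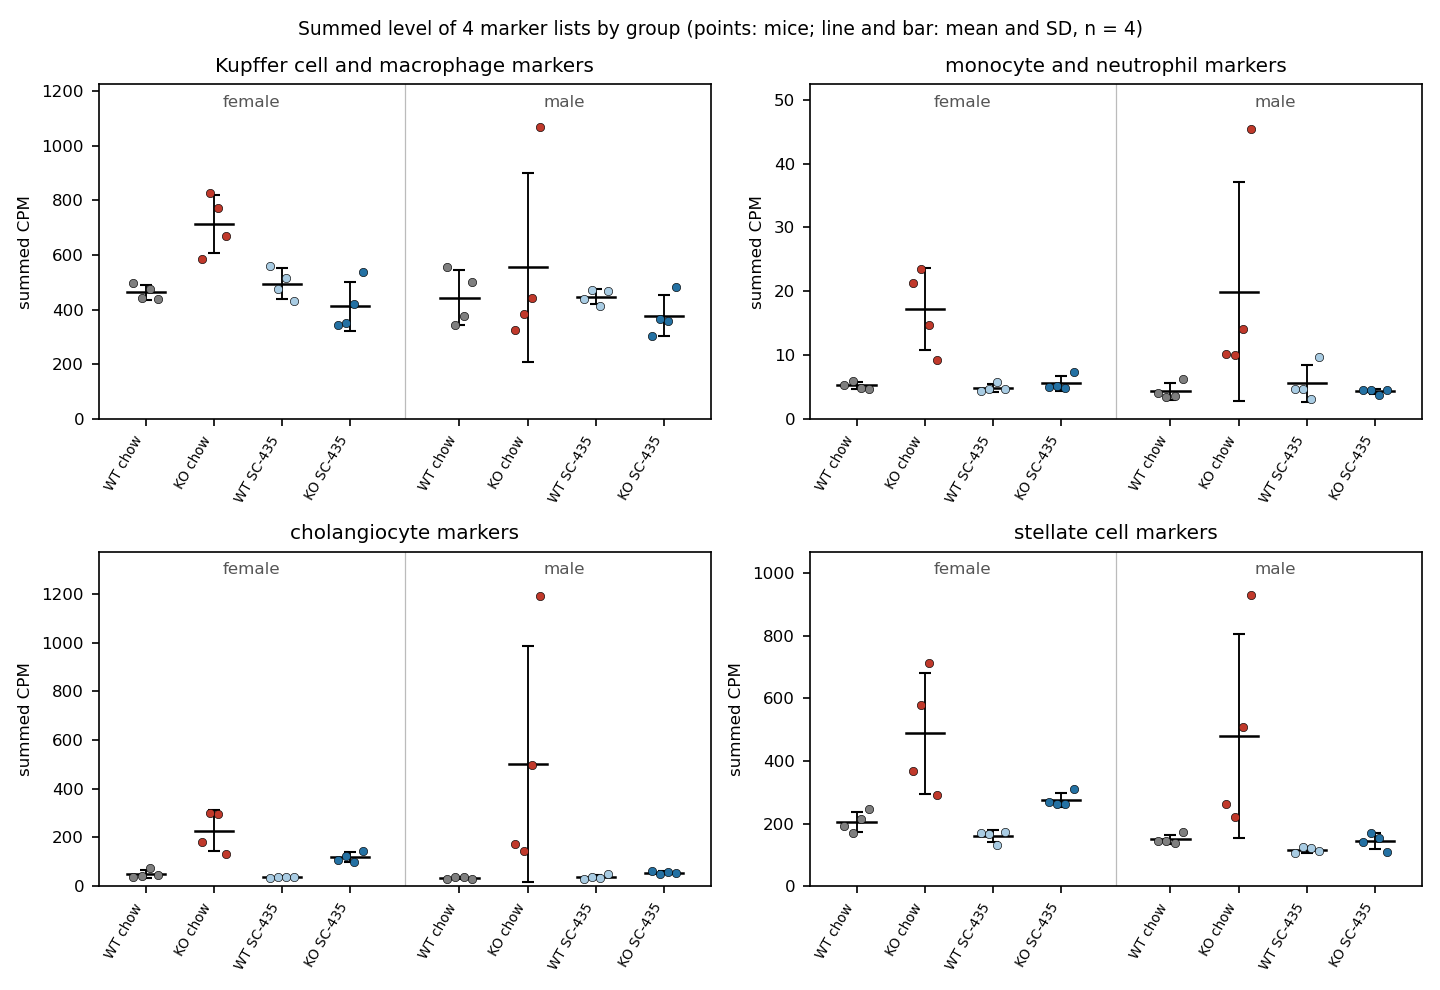
Summed CPM of 4 marker lists (vertical axes, starting at 0) in each group, with 1 point per mouse and a line and bar for the mean and SD (n = 4). Chow-fed KO male 4 stands above all other livers in each list, at 1069, 45.5, 1189 and 930 CPM.

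Levels of different members were compared per kilobase of gene model. In chow-fed WT females the mean level was 32.7 CPM per kb for *Tnfrsf1a*, 28 for *Nfkbia*, 11.7 for *Tnfrsf1b*, 5.10 for *Il1r1* and 3.35 for *Tnfrsf12a*. The other 5 were below 1 CPM per kb, at 0.641 for *Il1b*, 0.487 for *Tnfaip3*, 0.448 for *Il1rn*, 0.0934 for *Tnf* and 0.0133 for *Il1r2*. In chow-fed KO females *Il1b* reached 3.23 and *Il1rn* 2.08 CPM per kb. *Il1r1* exceeded *Il1b* on this scale in every group, for example at 5.10 against 3.23 CPM per kb in chow-fed KO females and 10.1 against 0.536 in SC-435-fed WT males.

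Ordering the 8 groups by mean level put chow-fed KO females first and chow-fed KO males second for *Il1b* (6.16 ± 2.74 and 3.91 ± 0.178 CPM, SD, n = 4), *Il1rn* (11.5 ± 4.35 and 7.79 ± 3.41), *Tnf* and *Il1r2*. For *Tnfaip3* the order was reversed, at 16.1 ± 6.48 CPM in males and 8.88 ± 3.21 in females, and for *Tnfrsf12a* the 2 highest groups were male, KO chow at 18.4 ± 9.83 and WT chow at 10.7 ± 6.79. The latter mean rests on WT male 1 at 20.7 CPM, the other 3 being at 6.43 to 8.97, against a mean of 7.65 in chow-fed KO females. In each of these genes the ranges of neighbouring groups overlapped, with 2 exceptions: the chow-fed KO females lay wholly above the SC-435-fed WT females for *Tnfaip3*, and the SC-435-fed KO males wholly above the chow-fed WT males for *Il1rn*.

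Over the 32 libraries, the pattern of each member was compared with 11724 other protein-coding genes by Pearson's r of log2 CPM, as a description. The points share groups, so r was also computed on deviations from group means. *Tnfaip3* was most like *Ccl2* (r = 0.912, 0.427 within groups) and *Fosb* (0.893, 0.408). *Il1rn* was most like *Gpr137b* (0.903, 0.608) and *Map4k4* (0.865, 0.616), and *Il1b* most like *Cd83* (0.856, 0.512), a dendritic cell and lymphocyte surface marker, and *Arl4c* (0.838, 0.553). *Tnfrsf12a* was most like *Mmp15* (0.885, 0.762) and *1700017B05Rik* (0.885, 0.774). For *Il1r1* these were *Gm340* (0.746, 0.531) and *Gcnt4* (0.732, 0.702), and for *Nfkbia* *Irf2bp2* (0.763, 0.749) and *Klf2* (0.731, 0.739), a flow-responsive transcription factor. *Tnfrsf1a* was most like *Flot1* (0.842, 0.878) and *Tspan9* (0.836, 0.870), but without chow-fed WT male 1 these fell to 0.706 and 0.643. *Tnfrsf1b* was most like *Jdp2* (0.793, 0.864) and *Clic4* (0.774, 0.845), at 0.752 and 0.710 without that library. The sparse *Tnf* and *Il1r2* were nearest to *Slfn2* (0.805) and *Il2rg* (0.801), and to *Ahnak2* (0.874) and *Fndc10* (0.833).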

How the data were processed

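Total RNA of 32 perfused mouse livers, 1 library per animal, had been sequenced after poly-A selection. The deposited table holds raw read counts per gene, which the authors made by aligning to mm10 and counting with featureCounts. The submitters' notes name HISAT2 2.0.5, featureCounts 1.5.0-p3, DESeq2 1.20.0 and GATK 4.1.1.0. Strandedness and annotation release are not given in the sources used here. FPKM columns and the authors' fold changes and p-values were not used. Libraries were assigned to groups by their labels.

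Counts were filtered with filterByExpr, scaled by TMM and fitted by edgeR 4.0.16 (R 4.3.3) for each pair of groups with its quasi-likelihood test. Sex differences and interactions were contrasts of one fit. All p-values were Benjamini-Hochberg adjusted over all genes tested, with 0.05 as threshold. The test was checked on simulated data. Alternatives were DESeq2 1.42.0 and its size factors, library size alone, no filter, a replicate block, the 4 groups of a sex in a single fit, a log2 fold limit of 1 and each library left out.

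The members and gene lists were chosen with earlier results of these data known. Besides the 10 members and *Cyp2c70*, the text names up to 2 genes per role group and comparison with the largest change among those passing, and the 2 genes of highest correlation with each member of log2 (CPM + 0.1), among protein-coding genes averaging 50 or more counts. Same-numbered mice did not deviate together throughout any pair of groups with TMM scaling, so numbers were not taken as pairs. The number of animals and their spread limit precision more than depth. Promoter sequences are from RefSeq, GRCm38.p6, matched by symbol for 10 of 10 members.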

Additional observations from a re-analysis of the deposited data

Results flagged for a closer look

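In 10 of the 80 sets of 4 mice (10 members in 8 groups), 1 mouse lay apart from the other 3 by Dixon's test at 95%. About 1 in 20 sets would be flagged if values were independent and normally distributed. The 80 sets reuse the same 32 livers and include genes near the limit of detection, so that rate is no yardstick here. The rate over all genes was not computed. Chow-fed WT male 1 had 204.0 CPM of *Tnfrsf1a*, against 86.2 to 92.0 in its group, and SC-435-fed WT male 4 had 157.6 CPM, against 84.6 to 89.1. SC-435-fed WT male 4 also had 5.52 CPM of *Il1rn*, against 1.14 to 1.85. SC-435-fed KO male 3 was low for *Il1b*, at 0.766 CPM against 2.31 to 2.38, and high for *Il1r1*, at 45.7 CPM against 17.0 to 20.3. SC-435-fed KO male 2 had 2.72 CPM of *Tnfaip3*, against 3.82 to 3.94. SC-435-fed WT female 4 had 22.6 CPM of *Il1r1*, against 48.3 to 52.7. For the sparse genes, *Tnf* was 0.0470 CPM in chow-fed WT female 2, against 0.181 to 0.194, and 0.318 CPM in SC-435-fed KO female 4, against 0.0919 to 0.129. *Il1r2* was 0.0547 CPM in chow-fed WT male 2, which is 2 counts, and 0 in the other 3.

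The response to SC-435 differed between genotypes by edgeR's interaction test for *Il1rn* in females (−2.43, adjusted p = 0.0247) and for *Tnfaip3* in females (−1.35, adjusted p = 0.0484) and males (−2.57, adjusted p = 0.0299), each more negative in KO than in WT livers.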

How the results depend on the processing

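No single-gene result reversed in 1869 recomputed values, of which 1743 kept their side of the threshold, 99 lost a call and 27 gained one. Most recomputed values belong to results that were not called, and staying uncalled counts as keeping their side. The 99 are therefore a larger share of the recomputed calls than of all 1869 values. Counts of members passing moved by over 1.5 times as follows. With the replicate block they fell from 3 to 0 for KO against WT females on SC-435, from 2 to 0 for KO against WT males on chow, and from 2 to 1 and 1 to 0 for the female and male interactions. With TMM scaling 0 of 28 pairs of groups had all 4 correlations of same-numbered animals above 0.1, so the numbers were not taken as pairs. Chow-fed KO and WT males came nearest, with 3 of 4 (lowest 0.0661), and 4 of 4 with library size alone (lowest 0.104). In that comparison the block gave adjusted p values of 0.0519 for *Il1rn* and 0.0535 for *Tnfaip3*. With the 4 groups of a sex in a single fit, counts went from 3 to 5 for KO against WT females on chow, from 5 to 3 for KO females on SC-435 against WT on chow, and from 3 to 1 for KO against WT females on SC-435. Requiring a log2 fold change beyond 1 left 1 in each of the last 2. DESeq2 called 1 where edgeR called 0 in WT females with SC-435 and in KO males on SC-435 against WT on chow, and 2 in the male interaction, as did the fit with no filter. The cause was not tested.

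With 1 library left out, the count ranged from 2 to 7 (6 with all libraries) for SC-435 in KO females and 2 to 5 (4) in KO males. It ranged from 3 to 4 (3) for KO against WT females on chow and 0 to 2 (2) in males, 3 to 6 (5) for KO females on SC-435 against WT on chow and 0 to 1 (0) in males, 1 to 3 (3) for KO against WT females on SC-435 and 0 to 1 (0) in males, and 0 to 5 (2) and 0 to 2 (1) for the female and male interactions. These fits hold fewer samples. At 0 to 15 counts per library for *Il1r2* and 2 to 51 for *Tnf*, depth limits what can be said of these genes.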
